A study of Mus musculus with 15 samples.

Results

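The stefin A genes and cystatin B were followed as 6 genes of a bulk total RNA-seq table of 38315 genes in mouse bone marrow: Stfa1, Stfa2, Stfa2l1, Stfa3 and Cstdc4, which form the stefin A group, and Cstb. They were chosen by gene name as myeloid cysteine protease inhibitors and close paralogs, and after their values in the 3 groups were known. The difference of Cstdc4 between the 2 normal marrows was among those seen, so differences of the 6 genes between groups are given as a description with no test. All 6 passed the filter on low values, which kept 18941 genes with a normalized count of at least 10 in at least 4 libraries.

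The libraries came from 7 marrows with acute myeloid leukaemia (AML) of mice with the genotype NUP98NSD1/FLT3ITD, and from marrow of wild-type mice, 4 libraries of it whole and 4 of it lineage-negative. NUP98-NSD1 is a fusion gene that recurs in childhood AML. FLT3-ITD is a duplication that leaves a growth factor receptor of blood progenitors active without its ligand. Lineage-negative marrow is marrow from which cells with surface markers of mature lineages have been removed. No group was given a drug or other agent, per the labels. The mice of the AML group are described as transgenic, and the promoter, age and strain are not given in the sources used here.

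Stefins are small cystatins that lack a signal peptide and act inside the cell. They bind the active site of papain-like cysteine proteases, the cathepsins B, H, L and S among them, and block it without being cleaved. Mice carry several copies of the stefin A gene side by side, whereas cystatin B (Cstb, also called stefin B) is a single gene expressed in most cells. Stefin A transcripts are known from maturing neutrophils and from skin.

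In the coordinates of the deposited table, the 5 stefin A genes lay within 299 kb of chromosome 16 and Cstb on chromosome 10. Stfa2l1 (ENSMUSG00000059657) was at chr16:35977181-35982323 on the plus strand and Cstdc4 (ENSMUSG00000079597) at chr16:36004582-36008481 on the plus strand. Stfa1 (ENSMUSG00000071562) was at chr16:36097313-36105735 on the plus strand. Stfa2 (ENSMUSG00000022902) was at chr16:36224354-36228819 and Stfa3 (ENSMUSG00000054905) at chr16:36270899-36275754, both on the minus strand. Cstb (ENSMUSG00000005054) was at chr10:78261503-78263456 on the plus strand. The submitters' processing notes name the build mm10, but only 861 of 38066 genes found in a GRCm38 annotation had the same start there, and 0 of the 6 did, so the build of these coordinates is not settled.

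The second coding exon shows how alike the 6 genes are, which bears on how far short reads can tell them apart. It is 102 bases long in each of them. The sequences below come from the GENCODE M21 transcripts (GRCm38), 5′ to 3′ on the strand of the gene, with capitals at each base that differs from Stfa2l1. The exons lie at Stfa2l1 at chr16:36159946-36160047 (plus strand), Stfa2 at chr16:36405130-36405231 (minus strand), Stfa3 at chr16:36452151-36452252 (minus strand), Cstdc4 at chr16:36186364-36186465 (plus strand), Stfa1 at chr16:36280466-36280567 (plus strand), Cstb at chr10:78426927-78427028 (plus strand).
Stfa2l1: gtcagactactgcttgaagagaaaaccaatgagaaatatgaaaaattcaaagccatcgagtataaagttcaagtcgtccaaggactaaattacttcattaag
Stfa2: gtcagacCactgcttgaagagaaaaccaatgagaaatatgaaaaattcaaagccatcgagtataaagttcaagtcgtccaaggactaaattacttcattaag
Stfa3: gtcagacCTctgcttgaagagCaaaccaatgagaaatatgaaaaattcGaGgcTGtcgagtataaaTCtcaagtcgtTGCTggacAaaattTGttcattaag
Cstdc4: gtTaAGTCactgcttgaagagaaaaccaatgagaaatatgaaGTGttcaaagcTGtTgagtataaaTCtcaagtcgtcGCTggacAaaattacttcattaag
Stfa1: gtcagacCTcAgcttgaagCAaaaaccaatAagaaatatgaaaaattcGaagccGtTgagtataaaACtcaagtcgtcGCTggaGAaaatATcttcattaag
Cstb: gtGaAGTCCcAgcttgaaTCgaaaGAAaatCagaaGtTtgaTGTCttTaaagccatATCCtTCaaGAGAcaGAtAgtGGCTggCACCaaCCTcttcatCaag

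Stfa2 differed from Stfa2l1 at 1 of the 102 bases, Stfa3 at 16, Cstdc4 at 17, Stfa1 at 18 and Cstb at 45. Between the 10 pairs of stefin A genes the exon was 82.4% to 99.0% identical, and between Cstb and the 5 stefin A genes 54.9% to 62.7%. Over whole transcripts, 23.5% of the 75-base windows of Cstdc4 were also present in another gene, 2010005H15Rik. The share was 10.7% for Stfa1 (with BC100530), 7.83% for Stfa2l1 (with Gm49652 and Stfa2) and 5.79% for Stfa2 (with Stfa2l1), and 0 for Stfa3 and Cstb. With windows of 50 bases it was 35.6% for Cstdc4, 26.9% for Stfa1, 24.6% for Stfa2l1 and 15.9% for Stfa2, and again 0 for Stfa3 and Cstb. How reads matching several genes were counted is not given in the sources used here. The level of Cstdc4, which shares the most windows, is the most exposed, followed by those of Stfa1 and Stfa2l1. Stfa2 and Stfa2l1 share windows with each other, and the division between them is also uncertain. The kit keeps strand, but whether strand was used in counting is not given either, so reads of antisense genes may be included.

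Stefin A transcripts were abundant in whole marrow, near the detection limit in lineage-negative marrow, and spread widely among the AML marrows. Cstb behaved otherwise: it was at like levels in both normal marrows and higher in every AML library. The values are normalized counts, which are estimated reads divided by 1 size factor per library. In this unit 3 reads, taken as the floor of detection, correspond to 1.96 to 4.09. In bulk samples fewer cells of a type and less RNA per cell cannot be told apart.

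Stfa2l1, the most abundant stefin A gene, had normalized counts of 559, 1219, 684 and 696 in the 4 whole marrows. In lineage-negative marrow the values were 11.8, 0, 3.53 and 5.87. The 7 AML marrows ranged from 46.6 to 2681 with a median of 439. Whole and lineage-negative marrow did not overlap, and the AML values reached from far below the lowest whole marrow to above the highest. The group means were 694 ± 900.5 in AML (SD, n = 7), 789 ± 293 in whole (n = 4) and 5.30 ± 4.96 in lineage-negative marrow (n = 4). AML replicate 6 alone held the top value, and the AML mean without it was 363.

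Cstdc4, a cystatin domain gene of the same locus, had 232, 974, 514 and 499 normalized counts in whole marrow. Its lineage-negative values were 0.908, 1.76, 3.53 and 0. In AML it ranged from 38.0 to 1194 with a median of 232. Only 1 AML library was above every whole marrow and 4 were below every one. In 3 of the 4 lineage-negative libraries Cstdc4 was at or under the floor.

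Stfa1 had 54.7, 209, 93.7 and 91.4 normalized counts in whole marrow. Among the lineage-negative libraries it was at 0 in 3 and at 0.881 in replicate 3, all at or under the floor. AML values ranged from 18.4 to 953 with a median of 81.8. The AML mean of 197 ± 336 (SD, n = 7) lay above the whole-marrow mean of 112 ± 67.0 (n = 4), but it was 71.0 without replicate 6. The order of the AML and whole-marrow means of Stfa1 thus rested on that library.

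Stfa2 and Stfa3 were the least abundant. Stfa2 had 21.5, 49.6, 29.2 and 28.7 normalized counts in whole marrow, 0 in lineage-negative replicates 1 to 3 and 2.61 in replicate 4. Its AML values ranged from 0 in replicate 3 to 397 in replicate 6, with a median of 25.9, and it was the 1 stefin A gene whose AML and lineage-negative values overlapped. Stfa3 had 29.6, 79.1, 28.2 and 51.8 in whole marrow, 0 in lineage-negative replicates 1 to 3 and 0.653 in replicate 4. In AML it ranged from 12.3 to 170.3 with a median of 45.6. Without replicate 6 the AML means were 21.2 for Stfa2, against 74.8 with it, and 32.8 for Stfa3, against 52.5.

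Cstb, the broadly expressed stefin, had 101, 277, 234 and 248 normalized counts in whole marrow and 188, 296, 221 and 206 in lineage-negative marrow. In AML it ranged from 493 to 749 with a median of 559.7. The lowest AML library was thus above the highest library of both normal groups. The means were 602 ± 104 in AML (SD, n = 7), 215 ± 78.4 in whole (n = 4) and 228 ± 47.6 in lineage-negative marrow (n = 4). The AML group spread less for Cstb, from lowest to highest 1.52-fold, than for any stefin A gene (13.9-fold for Stfa3, the narrowest of them with no value at 0).

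**Figure D1:**
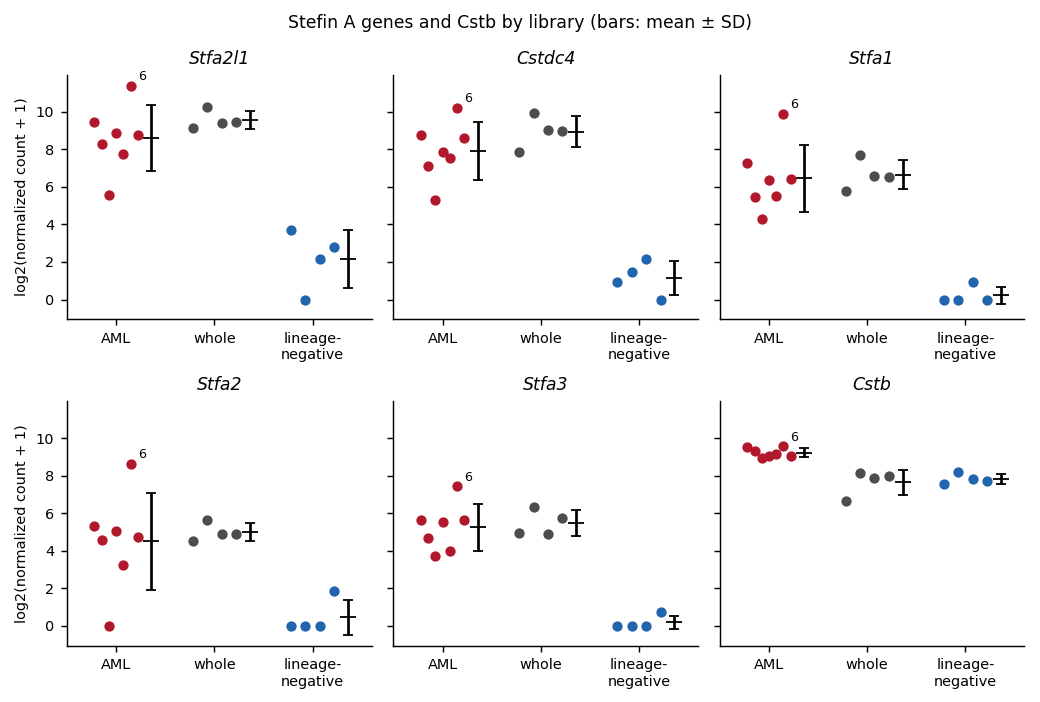
Log2(normalized count + 1) of the 6 genes, with 1 point per library in replicate order, and the mean ± SD of each group beside its points. AML has 7 libraries, whole and lineage-negative marrow 4 each, and AML replicate 6 is numbered. For the 5 stefin A genes the lineage-negative libraries sit near 0 and replicate 6 tops the AML group, whereas for Cstb all 7 AML libraries sit above both normal groups.

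The sum of the 5 stefin A genes was 898, 2531, 1349 and 1367 normalized counts in whole marrow. It was 12.7, 1.76, 7.93 and 9.14 in lineage-negative marrow. In AML it ranged from 115 in replicate 3 to 5395 in replicate 6, with a median of 857 and 1391 as the next highest value. The AML mean was 1392 ± 1812 (SD, n = 7), beside 1536 ± 698 in whole (n = 4) and 7.88 ± 4.56 in lineage-negative marrow (n = 4), and the AML mean without replicate 6 was 725. With Cstb added, the sum of all 6 was 1994 ± 1888 in AML (n = 7), 1751 ± 760 in whole (n = 4) and 236 ± 43.1 in lineage-negative marrow (n = 4). Nearly all of the lineage-negative sum was Cstb.

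The distance between whole and lineage-negative marrow was too large to be given as a fitted fold for genes at the floor, so ratios are given with exact Poisson 95% intervals of the summed lineage-negative reads, which cover counting error only. Over the 4 lineage-negative libraries about 39 reads were assigned to stefin A genes, and the whole-marrow mean of the sum was 193 times their level (141 to 272). For Stfa2l1, with 26 reads, the ratio was 149 (102 to 228), and for Cstdc4, with 7 reads, 389 (189 to 967). Stfa2, with 4 reads, had a ratio of 39.5 (15.4 to 145). Stfa1 and Stfa3 rested on 1 read each, with intervals of 98.7 to 21731 and 41.5 to 9135. The AML mean of the stefin A sum was 175 times the lineage-negative level (128 to 246). That mean, 1392, rested in large part on replicate 6 and was 725 without it, and the interval leaves out this spread. The ratio of the group medians was 100.

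On the log2(value + 1) scale, lineage-negative marrow was below whole marrow by −7.80 ± 0.73 (SE) for Cstdc4, −7.40 ± 0.85 for Stfa2l1, −6.42 ± 0.79 for Stfa1, −5.28 ± 0.62 for Stfa3 and −4.53 ± 1.10 for Stfa2. The difference for Cstb was 0.16 ± 0.27. The pseudocount shortens these distances for genes near 0. In 5 of the 6 genes lineage-negative marrow did not overlap with whole marrow and was lower, which 16.6% of all genes were. The median difference of all genes was 0.59, and with a trimmed-mean (TMM) scaling it was 0.06. The Cstb difference turned to −0.38 under that scaling and to −0.17 without whole-marrow replicate 1, and the direction of the 5 stefin A genes did not turn.

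Between AML and whole marrow (AML minus whole) the stefin A differences were small against the spread of the AML libraries: −1.03 ± 0.65 (SE) for Cstdc4, −0.98 ± 0.75 for Stfa2l1, −0.49 ± 0.98 for Stfa2, −0.22 ± 0.55 for Stfa3 and −0.20 ± 0.70 for Stfa1. Their groups overlapped, and some directions hung on 1 library. Without AML replicate 3 the difference was 0.17 for Stfa1, 0.26 for Stfa2 and 0.035 for Stfa3, and without whole-marrow replicate 2 it was 0.16 for Stfa1 and 0.069 for Stfa3. Cstb was higher by 1.56 ± 0.24, the 1 gene of the 6 whose AML values did not overlap with whole marrow and were higher, as 35.8% of all genes were. The median difference of all genes was 0.67, so relative to it Cstb stood at 0.89 and the stefin A genes between −1.70 and −0.87. With TMM scaling, under which that median was 0.12, Cstb differed by 0.997 and the stefin A genes by −1.60 to −0.76. Under that scaling the stefin A sum was 1643 to 2979 in whole marrow. In AML it was 5079 in replicate 6 and 107 to 1240 in the other libraries, all below every whole marrow. The overlap of the sum between the groups thus rested on replicate 6 under that scaling.

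AML exceeded lineage-negative marrow by 6.77 ± 0.65 (SE) for Cstdc4, 6.43 ± 0.75 for Stfa2l1, 6.23 ± 0.70 for Stfa1, 5.06 ± 0.55 for Stfa3 and 4.04 ± 0.98 for Stfa2, and by 1.40 ± 0.24 for Cstb. In 5 of the 6, all but Stfa2, the groups did not overlap, which held for 17% of all genes in this direction. The median of all genes in this comparison was 0.02. The comparisons share their groups and are not independent of each other.

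Per kb of transcript, the order in whole marrow was Stfa2l1, Cstdc4, Cstb, Stfa1, Stfa3 and Stfa2. The means were 1884 ± 700 normalized counts per kb for Stfa2l1 and 1341 ± 744 for Cstdc4, with overlapping values (SD, n = 4). Cstb stood at 357 ± 130, Stfa1 at 182 ± 109, Stfa3 at 114 ± 57.9 and Stfa2 at 68.5 ± 25.6, and the libraries of neighbours in this order overlapped except for Cstdc4, which was above Cstb in each. Within libraries the order was steadier: Stfa2l1 was above Cstdc4, Cstdc4 above Stfa1, and Stfa1 above Stfa3 in 11 of the 11 AML and whole-marrow libraries. Stfa3 was above Stfa2 in 10 of them, AML replicate 6 being the other. Cstdc4 was above Cstb in 4 of 4 whole marrows but in 2 of 7 AML libraries. In lineage-negative marrow Cstb, at 378 ± 78.9 per kb (n = 4), was far above Stfa2l1 at 12.6 ± 11.8.

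The balance between stefin A and Cstb within a library does not depend on the scaling between libraries. The stefin A sum was 8.93, 9.13, 5.77 and 5.51 times the Cstb value in whole marrow. In AML the ratio ranged from 0.234 to 7.20 with a median of 1.64, and 6 of the 7 libraries were at 1.91 or below. In lineage-negative marrow it was 0.00595 to 0.0676. The AML ratios thus lay below those of whole marrow except in replicate 6, and all lay above those of lineage-negative marrow.

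**Figure D2:**
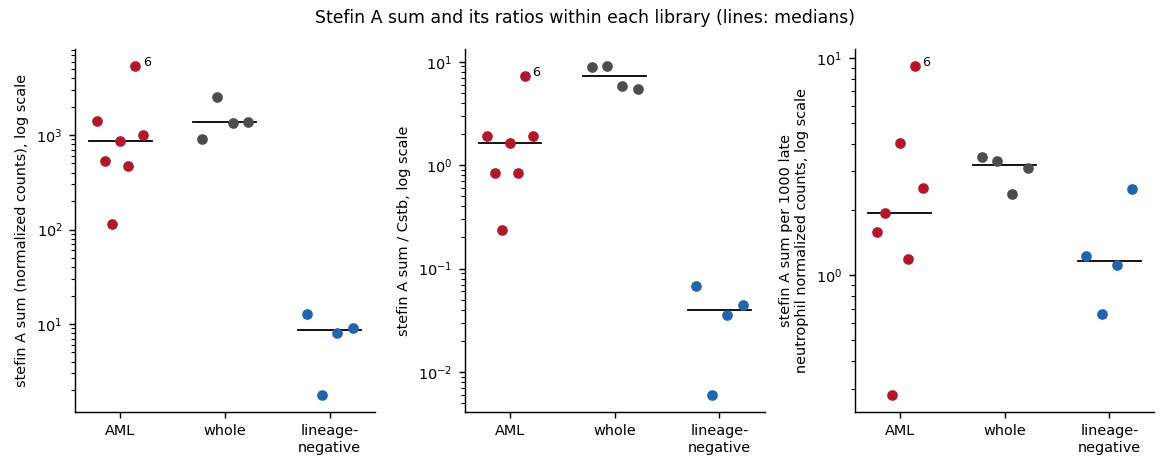
Panels on log axes show, for each library (points), the stefin A sum in normalized counts, its ratio to Cstb, and its level per 1000 normalized counts of 12 late neutrophil genes, with lines at the group medians. Replicate 6 is the highest AML library in each panel, and the other 6 AML libraries are below the 4 whole marrows for the ratio to Cstb.

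The make-up of the stefin A sum was similar in AML and whole marrow. Stfa2l1 gave 53.0% ± 6.32 of it in whole marrow (SD, n = 4) and 49.1% ± 5.88 in AML (n = 7). Cstdc4 gave 34.8% ± 5.97 in whole marrow and 31.2% ± 6.66 in AML. Stfa1 gave 11.5% ± 3.79 in AML and 7.00% ± 0.912 in whole marrow, and the lowest AML share of 8.03% was just under the highest whole-marrow share of 8.26%. In AML replicate 6 Stfa1 reached 17.7% and Stfa2 7.35%, each the highest share of the 11 libraries, while its Cstdc4 share of 22.1% was the lowest. AML replicate 3, the library with the least stefin A, had a Stfa3 share of 10.6% and a Stfa2 share of 0. The division between near-identical copies carries the uncertainty of read assignment described above.

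**Figure D3:**
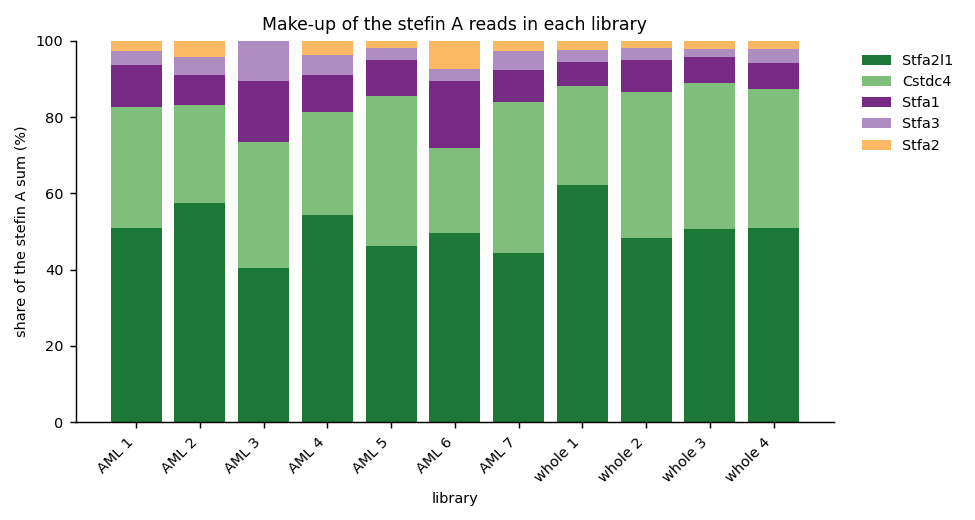
Stacked bars give the share in percent of each of the 5 genes in the stefin A sum of the 7 AML and 4 whole-marrow libraries. Stfa2l1 and Cstdc4 together make up most of every bar, and the Stfa1 share is largest in AML replicate 6 at 17.7%.

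Promoter sequence is shown because the 5 stefin A genes moved together across libraries. The 180 bases before each RefSeq start (GRCm38.p6) are printed 5′ to 3′ on the strand of the gene, with capitals at GAGGAA, on either strand, and at TTTAAAA. The windows lie at Stfa2l1 at chr16:36156631-36156810 (plus strand), Stfa2 at chr16:36408364-36408543 (minus strand), Stfa3 at chr16:36455393-36455572 (minus strand), Cstdc4 at chr16:36184032-36184211 (plus strand), Stfa1 at chr16:36276968-36277147 (plus strand). Cstb had no entry.
Stfa2l1: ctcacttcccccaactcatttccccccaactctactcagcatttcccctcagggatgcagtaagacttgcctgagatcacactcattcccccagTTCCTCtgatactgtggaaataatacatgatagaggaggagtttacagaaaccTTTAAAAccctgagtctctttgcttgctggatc
Stfa2: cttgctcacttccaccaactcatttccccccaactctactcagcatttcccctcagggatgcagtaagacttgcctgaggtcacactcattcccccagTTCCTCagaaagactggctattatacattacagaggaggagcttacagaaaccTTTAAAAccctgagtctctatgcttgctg
Stfa3: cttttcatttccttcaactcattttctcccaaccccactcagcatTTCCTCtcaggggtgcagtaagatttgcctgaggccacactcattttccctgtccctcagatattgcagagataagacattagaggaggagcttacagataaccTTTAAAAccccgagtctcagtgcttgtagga
Cstdc4: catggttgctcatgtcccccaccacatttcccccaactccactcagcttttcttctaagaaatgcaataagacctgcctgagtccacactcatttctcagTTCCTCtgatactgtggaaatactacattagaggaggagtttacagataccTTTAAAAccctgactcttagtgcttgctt
Stfa1: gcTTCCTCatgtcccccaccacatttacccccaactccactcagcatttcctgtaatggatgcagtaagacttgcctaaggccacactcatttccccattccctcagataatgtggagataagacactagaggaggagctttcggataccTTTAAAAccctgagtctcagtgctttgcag

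Motifs were searched on both strands in 250 bases before the start, and no matches overlapped within a promoter. GAGGAA, a core that PU.1 and other ETS factors can bind, was present in 5 of 5 stefin A promoters, against 23.3% of 32851 promoters of the same length. TTNNGNAA, a loose form of the C/EBP site, was present in 4 of 5 (36.8% of all), GATAAG in 2 of 5 (6.55%) and TATAAA in 0 of 5 (12.4%). TTTAAAA was present in 5 of 5, beginning 29 to 33 bases before the start (8.10% of all), and GAGGAGGAG in 5 of 5 (2.75%). These last motifs were chosen after the sequences were seen. The 5 promoters are 71.2% to 92.3% identical to each other, so they are not 5 independent observations.

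Within AML the stefin A genes varied together. Over the 6 AML libraries without replicate 6, Pearson's r of log2 values between stefin A pairs was 0.86 to 0.99, and between Cstb and a stefin A gene 0.34 to 0.59. Over all 7 AML libraries the ranges were 0.92 to 0.99 and 0.64 to 0.76. Over the 4 whole marrows they were 0.79 to 1.00 and 0.63 to 0.91, and overlapped. Stfa2 with Stfa2l1, which share sequence, had the highest r over the 6 and the 7 AML libraries, 0.99. Over the 4 whole marrows Stfa1 with Stfa2 had the highest, 0.999. These coefficients share libraries and size factors and are a description.

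Of 5 further genes of the stefin locus in the table, Cstdc5 alone was kept, and its means in whole marrow and AML were above those of Stfa2 and Stfa3. Its mean was 58.2 ± 43.6 normalized counts in whole marrow (SD, n = 4), 0.674 ± 0.867 in lineage-negative marrow (n = 4) and 130.5 ± 247 in AML (n = 7). The AML mean was 37.5 without replicate 6, which alone had 688. By limma with Benjamini-Hochberg adjustment, Cstdc5 fell in lineage-negative against whole marrow (−5.05 ± 0.86 SE, adjusted p = 4.56e-05), was higher in AML than in lineage-negative marrow (5.04 ± 0.76, adjusted p = 1.95e-05) and did not pass between AML and whole marrow (−0.01 ± 0.76, adjusted p = 0.992). Csta2 was listed at 59.5 in AML replicate 6 and averaged 2.97 over the other AML libraries. The remaining locus genes, Csta1, Csta3 and Cstdc6, averaged 5.98 or less in every group.

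The protease list holds papain-like cathepsins, the kind of protease stefins bind, and legumain (Lgmn), which belongs to another family. A gene is called where its adjusted p is under 0.05 and its log2 difference at least 1 in size. Of 11 cysteine protease genes kept, 7 rose and 1 fell in AML against whole marrow, where 27.3% of all genes rose and 11.3% fell. The median of the list was 1.47, against 0.67 over all genes. Ctss (cathepsin S, which trims the invariant chain in antigen-presenting cells) had a mean of 2993 ± 811 normalized counts in whole marrow (SD, n = 4) and of 17608 ± 3401 in AML (n = 7), a rise of 2.58 ± 0.24 (SE; limma, adjusted p = 1.74e-07). Ctsz, Ctsc, which activates the serine proteases of neutrophil granules, and Ctsh rose by 1.90, 1.90 and 1.83, and Ctsl, Lgmn and Ctso by 1.49, 1.47 and 1.25. Ctsf was the gene that fell (−1.57 ± 0.27, adjusted p = 8.93e-05), and Ctsb, with 0.96 ± 0.21, was under the size asked for. With TMM scaling 4 rose (Ctsc, Ctsh, Ctss and Ctsz) and 2 fell (Ctsf and Ctsk), against 6.51% and 14.8% of all genes, and Ctsl, Lgmn and Ctso were not called. The Ctso rise, at 0.99 without whole-marrow replicate 1, was not called there.

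Against lineage-negative marrow 9 of the 11 proteases were higher in AML and Ctsf was lower, where 17.7% and 12.5% of all genes were. Ctss differed by 4.32 ± 0.24 (SE), Lgmn by 3.15 ± 0.25 and Ctsh by 2.99 ± 0.23. Ctso, at 1.01 ± 0.26, was no longer called with TMM scaling (0.98), a pseudocount of 5 (0.997), or without AML replicate 2 (0.95), 3 (0.91) or 7 (0.99), or without lineage-negative replicate 1 (0.89). Between the normal marrows 5 proteases fell in lineage-negative against whole marrow, Ctsb, Ctsh, Ctsk, Ctss and Lgmn, and 0 rose, where 17.2% of all genes fell and 33.1% rose. With TMM scaling 7 fell, Ctsc and Ctsw being added, against 22.7% of all genes. The largest of these falls, Ctsk at −2.63 ± 0.65, was smaller than the difference of any stefin A gene, and that contrast was not tested. Ctsh was under the size asked for without lineage-negative replicate 3 (−0.97).

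Among cystatins outside the stefin group 4 genes were kept. Cst3 (cystatin C, the main secreted cystatin) had means of 2881 ± 786 normalized counts in whole marrow (SD, n = 4), 3633 ± 648 in lineage-negative marrow (n = 4) and 17542 ± 6421 in AML (n = 7). It rose in AML by 2.57 ± 0.25 (SE) against whole and 2.21 ± 0.25 against lineage-negative marrow (limma, adjusted p = 3.44e-07 and 7.22e-07). Cst3 and Cstb were thus both higher in AML than in either normal marrow. Cst7 (cystatin F, an inhibitor found in the granules of immune cells) was highest in lineage-negative marrow, 1.71 ± 0.31 above whole marrow and also above AML (AML minus lineage-negative −1.09 ± 0.27, adjusted p = 0.00285). The latter was under the size asked for without AML replicate 3 (−0.95) or lineage-negative replicate 2 (−0.95). Kng1 and Kng2, the kininogens, were scarce and fell in lineage-negative against whole marrow (−3.64 ± 0.77 and −2.51 ± 0.78 SE). Kng1 was also higher in AML than in lineage-negative marrow (2.33 ± 0.69, limma adjusted p = 0.00889). Of the 4, 1 rose in AML against whole marrow (27.3% of all genes), and 2 rose and 1 fell against lineage-negative marrow (17.7% and 12.5%). In lineage-negative against whole marrow 1 rose and 2 fell (33.1% and 17.2%).

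**Figure D4:**
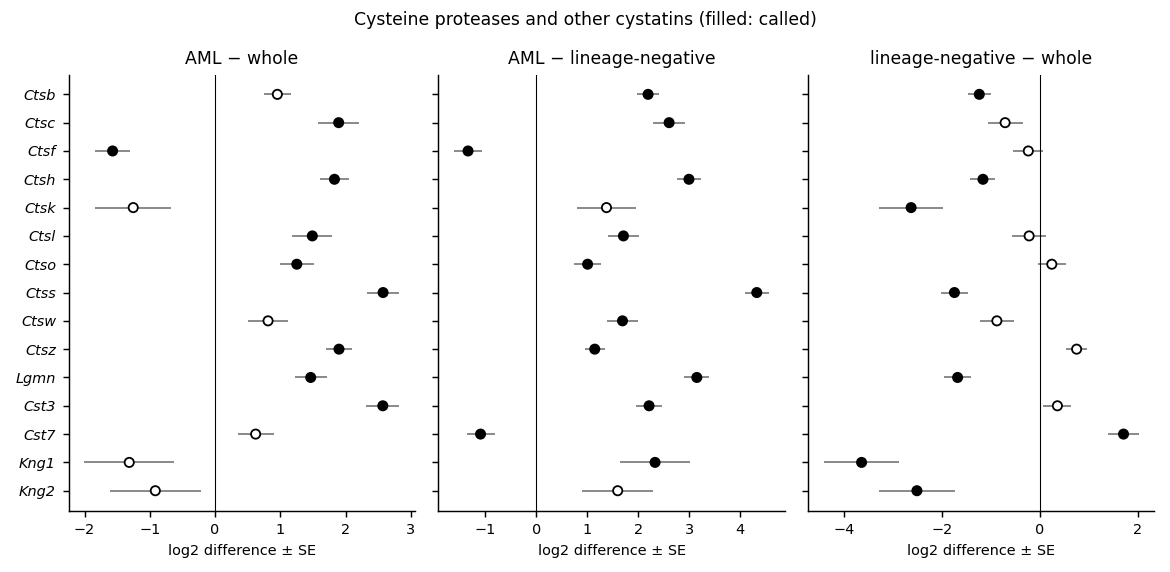
Log2 difference ± SE of 11 cysteine proteases and 4 other cystatins in the 3 comparisons (panels), with filled points for genes called. Ctss and Cst3 have the largest differences between AML and whole marrow, 2.58 and 2.57.

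Neutrophil maturation genes are set beside the stefin A genes because these transcripts are known from maturing neutrophils. In lineage-negative against whole marrow 8 of 8 secondary granule genes and 12 of 12 late neutrophil genes fell, where 17.2% of all genes did, with medians of −7.15 and −6.16 (all genes 0.59). Of 6 genes of the primary granule list, which marks earlier stages, 4 rose (Mpo, Prtn3, Ctsg and Elane), where 33.1% of all genes did. With TMM scaling 3 rose, Elane being lost. The 1 that fell was Cebpe, which encodes a transcription factor and no granule protein. The summed late neutrophil genes were at 257997 to 758238 normalized counts in whole marrow and 2668 to 10389 in lineage-negative marrow. They moved with the stefin A sum, as did other lineages in this comparison: 6 of 6 B cell genes fell with a median of −6.07, and the erythroid list had a median of −7.06. The part of these cell types in the stefin A difference was not tested. In AML against whole marrow 0 of 8 secondary granule genes and 1 of 12 late neutrophil genes, Il1b (−1.14 ± 0.39 SE, limma adjusted p = 0.0162), were called, where 11.3% of all genes fell. Without whole-marrow replicate 3, 0 of these genes were called, Il1b included. At an unadjusted p under 0.05 the counts were 0 and 3. With TMM scaling 3 late neutrophil genes fell, against 14.8% of all genes.

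Per 1000 normalized counts of the late neutrophil genes, the stefin A sum was 3.48, 3.34, 2.37 and 3.10 in whole marrow. In lineage-negative marrow it was 1.22, 0.661, 1.11 and 2.50. The means were 3.07 ± 0.494 in whole (SD, n = 4) and 1.37 ± 0.788 in lineage-negative marrow (n = 4), and the values overlapped. The late neutrophil sum is of untransformed values, so S100a8 and S100a9 weigh most in it. They averaged 168192 and 277566 in whole marrow (mean sum 506662) and 149102 and 244622 in AML (450336). In lineage-negative marrow they averaged 1089 and 2238 (5972), a smaller part of the sum. The measure is therefore not a level per neutrophil. Per 1000 normalized counts of the secondary granule genes the means were closer, 3.80 ± 0.635 in whole and 3.07 ± 1.82 in lineage-negative marrow, where replicates 2 and 4 reached 4.84 and 4.39. Both lineage-negative measures rest on about 14, 2, 9 and 14 stefin A reads in replicates 1 to 4. Replicate 2 was at or under the floor, so these ratios carry a large counting error. Per 1000 late neutrophil counts, the AML measure ranged from 0.280 in replicate 3 to 9.18 in replicate 6, with a median of 1.93. AML replicate 6 had a late neutrophil sum of 587850, below the 882499 of replicate 1, yet its stefin A sum was 5395 against 1391. AML replicate 3, with 412020, had a stefin A sum of 115.

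Within AML, 24 relations of the 6 genes with 4 marker lists were computed over the 7 libraries, and 0 passed an adjusted p of 0.05 in an exact two-sided permutation test, by Pearson's r or Spearman's rho. Unadjusted, 1 was under 0.05 by Pearson's r and 0 by Spearman's rho. That one was Cstb with the secondary granule genes (r = 0.83, exact p = 0.0272, adjusted 0.378; rho = 0.54, exact p = 0.236, adjusted 0.64). Without the 2 libraries farthest from the median, replicates 1 and 6, r was −0.00345, so the relation rests on them. Of the 24 Pearson coefficients 18 were positive, those with primary granule, secondary granule and late neutrophil genes, and the 6 with monocyte and macrophage genes were negative. By Spearman's rho Cstb with monocyte and macrophage genes was at 0.036. Some of the Pearson signs hung on few libraries. Without the 2 farthest libraries of each list, all 6 coefficients with secondary granule genes were negative (−0.76 to −0.00345) and all 6 with monocyte and macrophage genes positive (0.52 to 0.78). All 6 with primary granule genes stayed positive (0.54 to 0.83). Those with late neutrophil genes then ran from −0.21 to 0.41. Cstdc4 and Stfa1 had the highest r with late neutrophil genes, 0.72 each (exact p = 0.0645 and 0.0577, adjusted 0.378 for both; rho 0.71 for both, exact p = 0.0881, adjusted 0.64), and without replicates 1 and 6 these were 0.41 and 0.20. Replicate 6 had the lowest monocyte and macrophage level of the AML libraries, and without it r with those genes was 0.032 for Cstdc4 and 0.47 for Cstb.

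**Figure D5:**
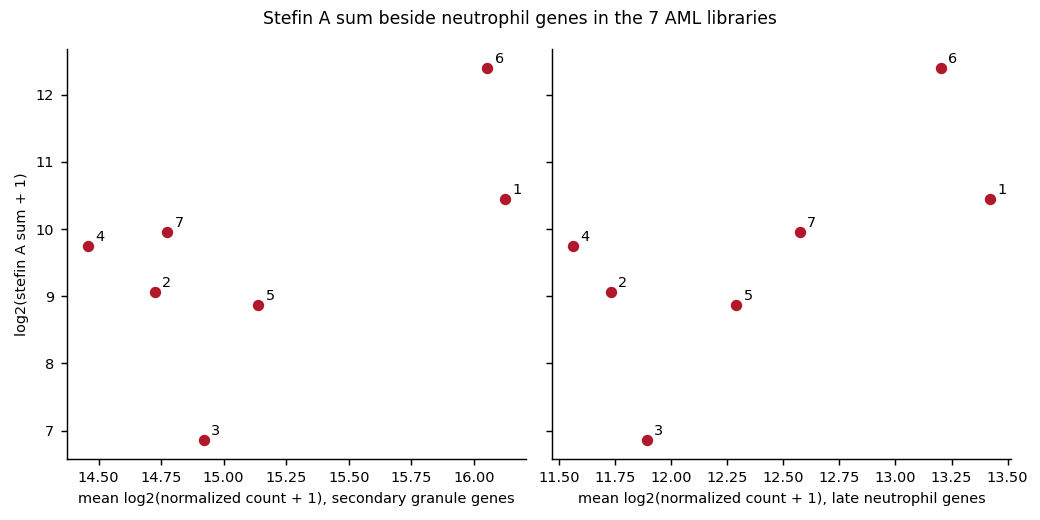
Log2 of the stefin A sum against the mean log2 level of 8 secondary granule genes (left) and 12 late neutrophil genes (right), with 1 numbered point for each of the 7 AML libraries. Replicates 1 and 6 are high for both lists, and replicate 3 has the lowest stefin A sum.

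The genes most alike to the stefin A sum over the 15 libraries, by Pearson's r of log2 values, were Asprv1 (r = 0.98), Dhrs9, Chrm3, Gpat3, Il1f9, H2-Q10, Ankrd33b, Mmp8, Mxd1 and Crispld2 (r = 0.97). Mmp8 encodes neutrophil collagenase, Asprv1 an aspartic protease and Il1f9 an interleukin 36 family cytokine. All 10 had a far lower mean in lineage-negative than in whole marrow, and the points share the group difference, so the coefficients describe it. Within the 7 AML libraries 2 of these 10, Chrm3 and Asprv1 (r = 0.98 and 0.94), were among the 10 genes most alike to the sum and the other 8 were not. Lrrc57 led there with r of 0.99. Over the 15 libraries Cstb had an r of 0.38 with it. The genes most alike to Cstb were Tmod3 (r = 0.98), Usb1, Spg21, Tmem50a and Ostm1, and each had its highest mean in AML.

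The libraries held totals of 10221001 to 29658616 normalized counts, or an estimated depth in M reads of 20.3 to 35.1 for the AML group, 20.3 to 28.1 for lineage-negative and 11.4 to 17.2 for whole marrow. Marker genes followed the labels of the normal groups in part: 6 of 6 progenitor genes rose in lineage-negative against whole marrow (33.1% of all genes), and 6 of 8 erythroid genes fell (17.2%). Car1, of the erythroid list, rose by 2.43 and was not called with TMM scaling. In this comparison 6 of 6 B cell and 4 of 5 T and NK cell genes fell, but 3 of 8 monocyte and macrophage, 3 of 5 eosinophil and 1 of 4 megakaryocyte genes did. From the T and NK cell list 1 gene rose, and from the megakaryocyte list 1. The AML libraries held 8 of 8 erythroid genes lower than whole marrow (11.3% of all genes), with sums of 441 to 30389 against 795225 to 1960953 normalized counts. They held 7 of 8 monocyte and macrophage genes higher (27.3% of all genes), or 5 with TMM scaling (6.51%), with sums of 54726 to 102984 against 11176 to 23336. Of the T and NK cell genes 3 of 5 were higher too. With TMM scaling 0 of these were higher and 1 was lower (14.8% of all genes). Lower in AML were 6 of 6 B cell, 5 of 5 eosinophil and 4 of 4 megakaryocyte genes, and of 6 progenitor genes 1 was higher and 1 lower. Cstb, Cst3 and 7 of the 11 proteases (4 with TMM scaling, where 2 fell) were higher in AML than in whole marrow together with the monocyte and macrophage genes, and the part of those cells was not tested.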

How the data were processed

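Total RNA of 15 mouse marrow samples was extracted with TRIzol and sequenced after a stranded total RNA library preparation, per the labels. Values in the deposited table are of the unit signal: estimated read counts that the authors divided by a DESeq2 size factor per library (type poscounts, per the table's name). The submitters' processing notes name Partek, STAR, DESeq2 and mm10; the counter, its strand setting and its handling of shared reads are not given in the sources used here.

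Of the low values in each library, 81.9% to 87.2% were whole multiples of 1 read (tolerance 0.02 of a step), so whole reads were not recovered and no count-based test between groups was run. For ratios to lineage-negative marrow alone, its values were divided by the step and rounded to reads, and the Poisson intervals rest on that estimate. Depth was estimated as the library total divided by that step. Genes with at least 10 normalized counts in at least 4 libraries entered 1 limma fit (3.58.1, R 4.3.3) of 3 group means on log2(value + 1), two-sided, with a mean-variance trend and Benjamini-Hochberg adjustment. The procedure was run on simulated data, where 100 of 100 genes changed 4-fold and 100 of 100 changed 8-fold were called, with 19 false calls. The simulation gave all genes the same spread setting and held no outlying library, unlike the marrows. It checks that the fit runs, and does not measure the error rate in these data. Relations within AML used exact permutation tests.

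The members and lists were chosen with earlier results of these data known. Named genes are the 6, the proteases and other cystatins that were called, up to 4 per other list, and the 10 and 5 genes most alike to the stefin A sum and to Cstb. Genes named outside this rule (Il1b, Ctsb, Cebpe, Elane, Car1, Lrrc57, locus genes not kept) were named after their values were seen. Where samples of a group did not come from separate animals, p-values measure only the spread between samples. Alternatives were TMM scaling, pseudocounts of 0.1 and 5, no filter, a mean of at least 50, replicate number as a block and leaving out each library.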

Additional observations from a re-analysis of the deposited data

Results flagged for a closer look

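In 36 groups of values examined, 14 held 1 library whose gap to its nearest neighbour was over Dixon's 95% critical value for the group's range. That value gives about 1 in 20 groups by chance only where values are normally distributed, which was not tested. The gaps were taken on untransformed values, not on the log2(value + 1) scale of the fit, and the groups are not independent. The chance rate here is therefore not known, and the flags hold for the untransformed scale only. Whether they hold on the log2 scale was not tested. AML replicate 6 was the far library in 10 of the 14. It was highest of the 7 AML libraries for Stfa1 (952.55 normalized counts, next 154), Stfa2 (396.539, next 38.2), Stfa2l1 (2681, next 709), Stfa3 (170.29, next 49.6), Cstdc4 (1194, next 440.2) and Cstdc5 (688, next 81.4). The same library was highest for the stefin A sum (5395), the sum of all 6 genes (6144), the ratio of stefin A to Cstb (7.20) and stefin A per 1000 normalized counts of late neutrophil genes (9.18, next 4.06). Its Cstb value, 749, was not set apart from the others.

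Lineage-negative replicate 3 stood apart for Stfa1 at 0.881, and replicate 4 for Stfa2 at 2.61 and Stfa3 at 0.653. The other lineage-negative libraries were at 0 for these genes, so any read at all puts a library past the critical value there, and these 3 of the 14 carry no information. Whole-marrow replicate 2 was highest for Cstdc5 at 123, with 42.3 next.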

How the results depend on the processing

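Of 372 alternative values of the 18 member differences, 16 moved by more than the spread between replicates, and of these Cstb in lineage-negative minus whole marrow changed direction. Smaller moves turned the direction of Stfa1, Stfa2 and Stfa3 in AML minus whole marrow when 1 library was left out. With a pseudocount of 0.1, AML minus lineage-negative was 8.93 for Stfa1, 6.11 for Stfa2, 7.79 for Stfa3 and 8.04 for Cstdc4, and lineage-negative minus whole was −9.14, −7.08, −8.02 and −9.08. With 5 it was 4.18 and −4.33 for Stfa1, 3.06 and −3.23 for Stfa3 and 5.27 and −6.27 for Cstdc4. These genes are near 0 in lineage-negative marrow, where the pseudocount sets the value. With TMM scaling Cstb was 0.997 in AML minus whole and −0.38 in lineage-negative minus whole.

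Between AML and whole marrow, 2 other cystatins (against 1) and 3 neutrophil genes (against 1) were called with TMM scaling. Without the filter, 3 other cystatins and 2 further locus genes (against 0) were called there, and 5 and 3 in lineage-negative minus whole (against 3 and 1), with more genes tested. The share of all genes called was not computed without the filter. With a mean of at least 50, 1 cystatin was called in lineage-negative minus whole. Leaving out 1 library gave 0 to 2 neutrophil calls between AML and whole marrow, 0 without whole-marrow replicate 3, where the Il1b call ended. Without AML replicate 6 the relation with monocyte and macrophage genes turned to 0.032 for Cstdc4 and 0.47 for Cstb; leaving out each AML library gave −0.62 to 0.032 and −0.48 to 0.47. The cause of these changes was not tested.

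Samples with the same replicate number deviated together in 2 of 12 pairs (correlation above 0.1, range −0.29 to 0.17). Pairs with unlike numbers were not computed for comparison, so whether the numbers pair samples is not settled, and the main fit did not pair them. With the replicate block 2 neutrophil genes were called between AML and whole marrow. Replicate numbers above 4 occur only in the AML group. The AML libraries with those numbers, replicate 6 among them, therefore did not weigh in the differences of the block fit. Depth limits values in lineage-negative marrow, where the stefin A sum rests on 39 reads.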
